A study of Mus musculus with 6 samples.

Results

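The DOCK proteins are guanine nucleotide exchange factors, and 9 genes of the family were followed here in mouse megakaryocyte-erythroid progenitors: Dock1, Dock2, Dock4, Dock5, Dock6, Dock8, Dock9, Dock10 and Dock11. A gene was taken where the array had a probe set with that gene as its only symbol, and for a gene with several the probe set was selected on its mean value, the highest over all 6 arrays. All 9 were found among the 19661 genes with a probe set of their own. The choice of probe set used mean levels and not the genotype. The family itself was chosen by earlier results of these data, above all the difference of Dock8, so that the difference of Dock8 is given as a description and the p-values of the other members are not independent evidence. Dock3 also had a probe set and its values are given too.

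The cells were sorted from bone marrow of mice labelled Fog1+/+ or Fog1ki/ki, all of strain B6.129. The gate took cells that carried Kit, lacked lineage markers, Sca1 and CD34, and had little FcγRII/III. Each genotype had 3 arrays, called biological replicates, and neither the age of the mice nor the number of animals behind an array is given in the sources used here. Zfpm1 encodes FOG1, the partner through which GATA1 controls many of its genes. What the knock-in alters is not stated in the labels. As the study is generally known, the mutant FOG1 has lost its contact with the chromatin complex NuRD. The comparison of genotypes gives the genes whose levels differ between the sorted cells. Whether a gene depends on that contact was not tested.

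DOCK proteins load the small GTPases Rac and Cdc42 with GTP through a catalytic domain that is unrelated to that of the larger Dbl family of exchange factors. Rac drives sheet-like actin protrusions and Cdc42 drives finger-like protrusions and cell polarity, so the family links surface receptors to cell shape and migration. Dock1, Dock2, Dock4 and Dock5 act on Rac, mostly together with an ELMO protein. Dock9, Dock10 and Dock11 act on Cdc42, as does Dock8, while its close relative Dock6 acts on both GTPases. Dock2 and Dock8 are best known from white blood cells, where Dock2 directs lymphocyte migration and loss of Dock8 causes an immune deficiency.

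The promoters of the Cdc42-type genes Dock8, Dock11 and Dock10 are printed because the first and the second had the largest genotype differences in the family and Dock10, from the same class, did not. Each is the stretch of 250 bases before a RefSeq start on GRCm38.p6, written 5′ to 3′ on the strand of the gene. Capitals mark a GATA motif or the ETS motif GGAAGT, searched on both strands, and no 2 matches overlap in these stretches. The GATA motifs were AGATAA and TGATAA and, with the last base changed, AGATAG and TGATAG. Shorter or other ETS sequences were not searched for and are not marked.
Dock8, chr19:24999279-24999528, plus strand: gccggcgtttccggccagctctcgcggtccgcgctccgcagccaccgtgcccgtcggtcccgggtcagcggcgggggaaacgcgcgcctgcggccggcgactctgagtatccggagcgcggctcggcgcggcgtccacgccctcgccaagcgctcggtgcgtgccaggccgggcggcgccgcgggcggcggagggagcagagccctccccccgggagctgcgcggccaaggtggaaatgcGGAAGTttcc
Dock11, chrX:35888582-35888831, plus strand: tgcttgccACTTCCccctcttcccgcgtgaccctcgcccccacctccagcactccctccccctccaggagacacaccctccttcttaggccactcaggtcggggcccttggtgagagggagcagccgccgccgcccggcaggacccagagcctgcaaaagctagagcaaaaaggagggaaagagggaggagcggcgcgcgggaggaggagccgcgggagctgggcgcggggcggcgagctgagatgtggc
Dock10, chr1:80758554-80758803, minus strand: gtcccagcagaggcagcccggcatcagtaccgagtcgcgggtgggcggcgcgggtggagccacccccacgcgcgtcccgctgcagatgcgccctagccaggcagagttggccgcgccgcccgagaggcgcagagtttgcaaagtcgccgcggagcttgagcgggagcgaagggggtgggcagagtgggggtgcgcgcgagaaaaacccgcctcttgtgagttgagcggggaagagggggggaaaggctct
Dock10, second start, chr1:80665353-80665602, minus strand: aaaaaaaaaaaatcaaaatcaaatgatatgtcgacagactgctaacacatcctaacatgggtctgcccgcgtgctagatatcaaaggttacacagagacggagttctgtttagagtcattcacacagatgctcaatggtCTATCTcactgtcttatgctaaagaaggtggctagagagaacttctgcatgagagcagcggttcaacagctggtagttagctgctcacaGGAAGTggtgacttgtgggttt

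No GATA motif was found in the stretches of Dock8 or Dock11, and 1 was found at the second start of Dock10. Across the family, 11 stretches from 8 genes were in the table, and 2 of them held a GATA motif, the other one being that of Dock6. Of all 32851 stretches of this length, 26.5% held one. Both Dock8 and Dock11 held 1 match to GGAAGT, which 5 of the 11 family stretches and 19.7% of all stretches held. Shorter or other ETS sequences were not counted. The Dock8 stretch was 77.6% G and C with 43 CpG pairs and the Dock11 stretch 69.6% with 18, against medians of 52.4% and 6 over all stretches. High shares were not particular to these genes. The Dock10 stretches had 70.4% with 27 and, at the second start, 43.2% with 5. Those of Dock9 had 78.8% with 34, 52.8% with 3 and 42.4% with 7. Dock1 had 71.6% with 29, Dock6 68.8% with 20, Dock4 64.0% with 24 and Dock2 52.8% with 4. A match describes these letters only, and no binding was measured.

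Values are RMA values on the log2 scale, in which a difference of 1 is a 2-fold change. They compare 1 probe set across arrays and do not rank genes against each other. Dock1 and Dock4 lay below the lower quartile of all probe sets in all 6 arrays, whose lower quartiles ran from 4.81 to 4.92, so differences of these dim genes may be compressed. The remaining 7 members lay above it in every array.

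Dock8 (probe set 10462140) was the member with the largest difference. Its values were 7.72, 7.44 and 7.62 in Fog1+/+ replicates 1, 2 and 3 and 9.68, 8.99 and 9.15 in those of Fog1ki/ki. The genotypes did not overlap, and the lowest Fog1ki/ki array stood 1.27 above the highest Fog1+/+ array. The means were 7.59 ± 0.14 and 9.27 ± 0.36 (SD, n = 3 each), a log2 difference of 1.68 (SE 0.17, 95% interval 1.29 to 2.07) or 3.20-fold. It ranked 10 by size among the increases of all 19661 genes.

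Dock11 (probe set 10599120), a Cdc42 exchange factor encoded on the X chromosome and known from lymphocytes, rose as well. Its values were 7.16, 7.57 and 7.38 in Fog1+/+ and 9.08, 8.86 and 8.44 in Fog1ki/ki. The genotypes again did not overlap, with a gap of 0.87 between the nearest arrays. The means were 7.37 ± 0.21 and 8.79 ± 0.33 (SD, n = 3 each), a log2 difference of 1.42 (SE 0.17, 95% interval 1.04 to 1.81) or 2.68-fold, with an adjusted p of 0.0073 in limma's fit over all genes. By size it ranked 19 among all increases.

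The other Cdc42-type members showed small differences. Dock10 measured 9.21, 9.18 and 9.05 in Fog1+/+ and 9.53, 9.28 and 9.26 in Fog1ki/ki. All Fog1ki/ki arrays were higher, by as little as 0.05, and the log2 difference of 0.21 (SE 0.11, 95% interval -0.03 to 0.45) did not pass (limma adjusted p = 0.598). Dock9 measured 5.88, 6.01 and 6.13 in Fog1+/+ and 6.23, 6.19 and 6.13 in Fog1ki/ki, so that the genotypes met at one value. Its log2 difference was 0.18 (SE 0.10, 95% interval -0.04 to 0.40, limma adjusted p = 0.632). The upper bounds of both intervals lay below the lower bound of Dock11 (1.04), and a difference between members was not tested.

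**Figure D1:**
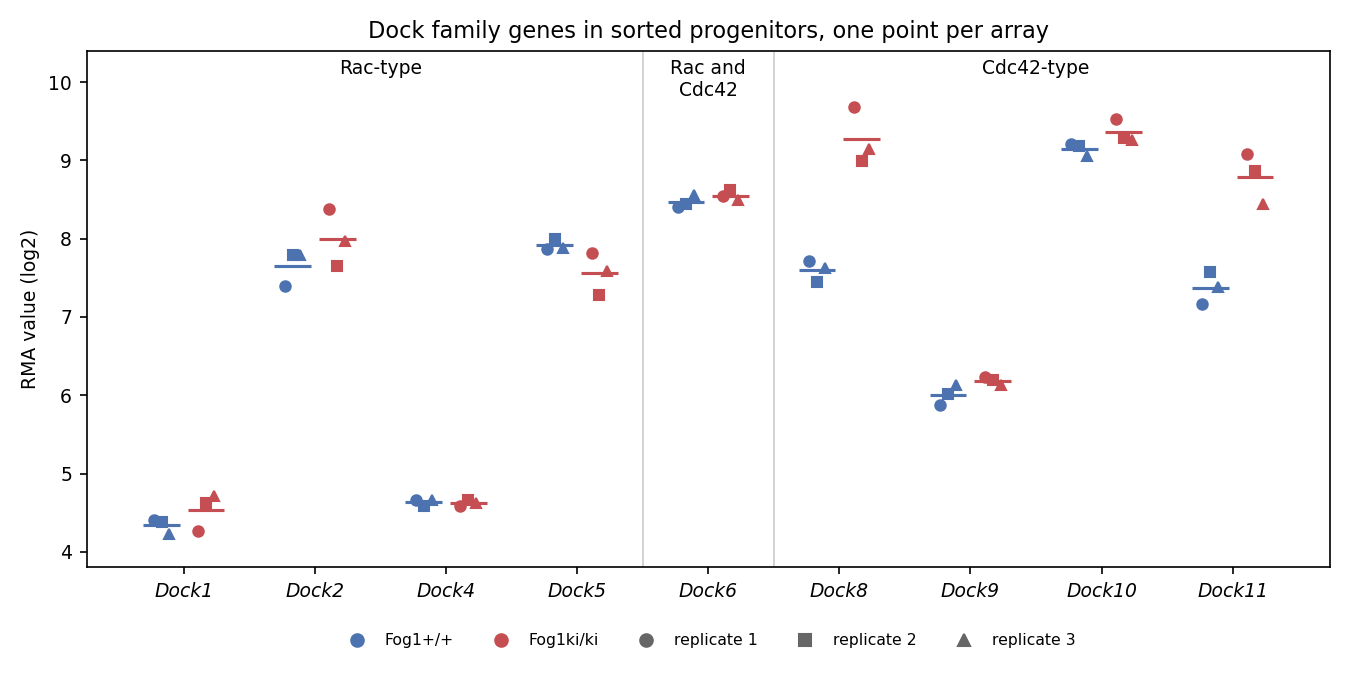
RMA values (log2, vertical axis) of the 9 Dock genes in the 3 Fog1+/+ arrays (blue) and the 3 Fog1ki/ki arrays (red), with the replicate number as the symbol and the genotype mean as a bar. Dock8 and Dock11 are the genes with a wide gap between the genotypes, 1.27 and 0.87 between their nearest arrays, and heights are not comparable between genes.

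None of the Rac-type members passed the test (0 of 4 in limma, 1 at an unadjusted p under 0.05, Dock5, as for 9.57% of all genes). Dock2, the Rac activator of white blood cells, measured 7.39, 7.79 and 7.79 in Fog1+/+ and 8.38, 7.65 and 7.97 in Fog1ki/ki. The genotypes overlapped, and replicate 1 was both the lowest Fog1+/+ array and the highest Fog1ki/ki array. The log2 difference was 0.34 (SE 0.19, 95% interval -0.08 to 0.77, limma adjusted p = 0.627).

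Dock5, a Rac activator known from osteoclasts and mast cells, was the one member whose arrays were all lower in Fog1ki/ki. It measured 7.87, 8.0 and 7.88 in Fog1+/+ and 7.82, 7.28 and 7.59 in Fog1ki/ki. Replicate 1 of Fog1ki/ki lay only just below the Fog1+/+ arrays. The log2 difference of -0.35 (SE 0.14, 95% interval -0.66 to -0.04) had an unadjusted p of 0.0296 in limma and did not pass over all genes (limma adjusted p = 0.437).

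Dock1, which works with ELMO in the uptake of dying cells, measured 4.40, 4.38 and 4.23 in Fog1+/+ and 4.26, 4.62 and 4.71 in Fog1ki/ki (log2 difference 0.19, SE 0.13, limma adjusted p = 0.703). Dock4 lay between 4.59 and 4.66 in both genotypes (log2 difference -0.01, SE 0.08, limma adjusted p = 0.980). Both are the dim genes named above, and their arrays overlapped between genotypes. Dock3, a Rac activator of neurons, lay between 4.97 and 5.17 in all arrays (log2 difference 0.07, SE 0.09, limma adjusted p = 0.867).

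Dock6, which acts on Rac and on Cdc42, was covered by 15 probe sets. The brightest measured 8.40, 8.44 and 8.56 in Fog1+/+ and 8.54, 8.62 and 8.49 in Fog1ki/ki, and the genotypes overlapped (log2 difference 0.08, SE 0.09, limma adjusted p = 0.845). The 15 probe sets, which share 1 gene and are not replicates, had log2 differences from -0.14 to 0.29, of which 7 were above 0 and 8 below. Their mean gave 0.01. The platform gave each of the other 8 members a single probe set.

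**Figure D2:**
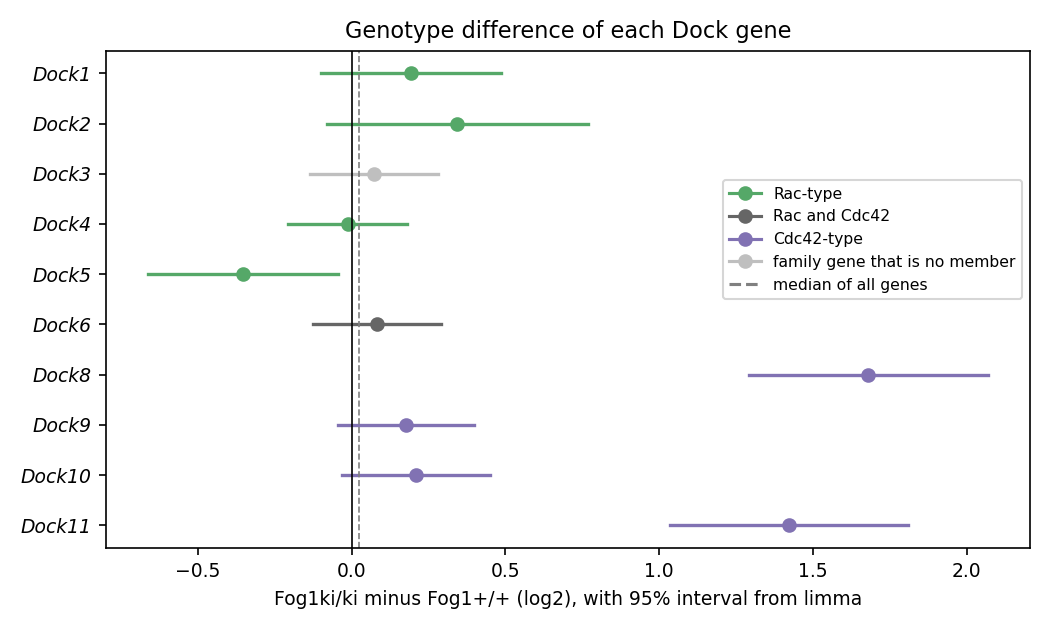
Log2 difference of Fog1ki/ki minus Fog1+/+ (horizontal axis) for the 9 members and Dock3, as points with 95% intervals from limma, coloured by the GTPase the protein acts on. The intervals of Dock8 (1.29 to 2.07) and Dock11 (1.04 to 1.81) lie far to the right of the dashed median of all genes (0.02), and that of Dock5 (-0.66 to -0.04) lies to the left of 0.

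By class, the 4 Cdc42-type members had a median log2 difference of 0.82 and all 4 lay above 0, as did 56.3% of all genes. Without Dock8 that median was 0.21, over Dock9, Dock10 and Dock11, and all 3 lay above 0, as did 56.3% of all genes. The 4 Rac-type members had a median of 0.09, with 2 above 0, and the median of all genes was 0.02. In limma's fit over all genes 0.773% of genes were called at an adjusted p under 0.05, 0.376% higher and 0.397% lower. Of the 8 members other than Dock8, 1 was called higher, Dock11, and 0 lower (2 at an unadjusted p under 0.05, Dock11 and Dock5). Dock8, the gene that drew attention to the family, was past the same threshold, so nothing is read from its call. Of these 8 members, 2 were higher in Fog1ki/ki with no overlap of arrays (Dock10 and Dock11) and 1 was lower (Dock5). Of all genes, 8.31% were higher and 6.53% lower with no overlap. The difference between the classes rests on Dock8 and Dock11 and was not tested.

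Replicate 3 of each genotype had low values of Y-linked genes, with Eif2s3y at 3.21 and 3.46 where no other array was below 9.29, so each genotype held arrays of both kinds. For Dock11, which is X-linked, the difference was 1.61 between the arrays with high Y-linked values (n = 2 each) and 1.06 between the arrays with low ones (n = 1 each). For Dock8 the same differences were 1.76 and 1.53. Without the arrays with low Y-linked values 2 arrays per genotype remained, and 24 genes were called where all 6 arrays gave 152. Dock11 passed narrowly there (limma adjusted p = 0.0498), while Dock8 did not (limma adjusted p = 0.0916). With all 6 arrays Dock8 was at a limma adjusted p of 0.0033, and with any 1 array left out at 0.0028 to 0.0234. Nothing is read from these calls of Dock8, by which the family was chosen.

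Fog1ki/ki replicate 1 was the highest array for both Dock8 and Dock11. Without it the log2 differences were 1.48 for Dock8 and 1.28 for Dock11, and Dock11 remained past the threshold (limma adjusted p = 0.0193). Over 16 alternative settings the difference of Dock8 ran from 1.48 to 1.82 and that of Dock11 from 1.28 to 1.61, and Dock11 passed in all 16 (limma adjusted p from 0.0048 to 0.0498). Dock5 stayed below 0 in all 16 (-0.48 to -0.21) and passed in none (limma adjusted p from 0.154 to 0.873).

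**Figure D3:**
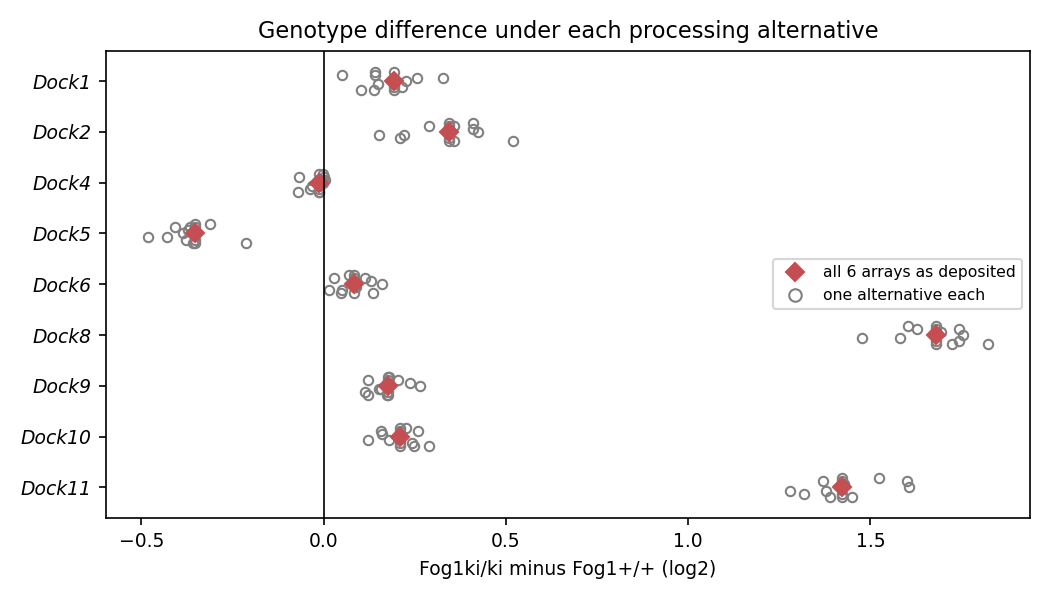
Log2 difference of each member (horizontal axis) with all 6 arrays as deposited (red diamonds) and under each processing alternative (open circles, 16 per gene, or 15 for the dim genes Dock1 and Dock4). Dock8 (1.48 to 1.82) and Dock11 (1.28 to 1.61) lie apart from the other members in every setting.

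Neighbouring genes were read from the same fit. Among the 5 tested genes on each side of every member, in the order of RefSeq starts, 3 of 90 were called higher and 0 lower in limma, where 0.376% and 0.397% of all genes were. At an unadjusted p under 0.05 in limma there were 12, where 9.57% of all genes passed. The 3 called genes were Smarca2, a chromatin remodelling ATPase placed 5 genes from Dock8 (log2 difference 0.91, limma adjusted p = 0.0201), Gnrh1, next to Dock5 (0.88, limma adjusted p = 0.0166), and Lcp2, an adaptor of immune receptors near Dock2 (0.50, limma adjusted p = 0.0451). The calls were lost in 6, 6 and 13 of 16 alternatives. Smarca2 kept its call only with Fog1+/+ replicate 2 or Fog1ki/ki replicate 3 as the array left out, and the other 4 gave limma adjusted p-values between 0.0559 and 0.118. Gnrh1 lost its call when any 1 Fog1+/+ array or Fog1ki/ki replicate 2 was left out (limma adjusted p of 0.0589 to 0.0867), and Lcp2 when any 1 of the 6 arrays was (0.0741 to 0.203). The largest difference among the 90 was that of Scin, an actin-severing protein encoded near Dock4, at 4.99 in Fog1+/+ and 6.57 in Fog1ki/ki with no overlap (log2 difference 1.58, SE 0.48), which did not pass (limma adjusted p = 0.288). It exceeded the difference of every member but Dock8. Kcnmb1, near Dock2, also had no overlap and did not pass (log2 difference 0.88, limma adjusted p = 0.194), but passed with the replicate number as a block and without Fog1ki/ki replicate 2. The genes directly beside Dock8 were Cbwd1 (log2 difference -0.50, limma adjusted p = 0.196) and Kank1 (-0.07), and the 10 genes around Dock11 lay between -0.21 and 0.25.

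Lists of the other genes of Rac and Cdc42 signalling were described in the same fit. In all, 1 of the 104 measured genes was called, lower, and 103 were not, where 0.773% of all genes were called. At an unadjusted p under 0.05 in limma there were 15 (8 higher and 7 lower), where 9.57% of all genes passed. The same shares stand beside the counts of each list below. The median log2 difference of the 104 was 0.02. The called gene was Iqgap2, a scaffold that binds active Cdc42 and Rac. It measured 10.29, 10.16 and 10.14 in Fog1+/+ and 9.68, 9.26 and 9.27 in Fog1ki/ki, with no overlap. It fell by 0.79 on the log2 scale (SE 0.13, limma adjusted p = 0.0310). The call was lost in 8 of 16 alternatives, among them leaving out any array other than Fog1ki/ki replicate 1 (limma adjusted p from 0.0958 to 0.143), while the difference ran from -0.93 to -0.71 over all 16.

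The 9 GTPases of the Rac and Cdc42 subfamilies held no called gene (0 in limma, 1 at an unadjusted p under 0.05), with a median of -0.04. Cdc42 itself had a log2 difference of -0.06 (SE 0.10) and Rac1 one of -0.04 (SE 0.09). Rac2, the Rac of blood cells, measured 7.99, 8.58 and 8.10 in Fog1+/+ and 8.91, 8.42 and 8.84 in Fog1ki/ki (log2 difference 0.50, limma adjusted p = 0.380). The genotypes overlapped in Rac2 because replicate 2 of Fog1ki/ki lay below replicate 2 of Fog1+/+.

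Of 13 adaptors and partners of DOCK proteins 0 were called in limma (2 at an unadjusted p under 0.05, median 0.01). Elmo1, the partner of the Rac-type members, measured 5.55, 5.13 and 5.74 in Fog1+/+ and 6.72, 6.01 and 6.27 in Fog1ki/ki. All Fog1ki/ki arrays were higher, and the log2 difference of 0.86 (SE 0.20) did not pass (limma adjusted p = 0.141). Elmo2 stood at -0.11 and Elmo3 at 0.17, and Wipf1, which links Dock8 to the actin regulator WASP, stood at 0.21 (limma adjusted p = 0.700).

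Of 27 exchange factors of the Dbl type 0 were called in limma (3 at an unadjusted p under 0.05, median 0.06), and the smallest p was that of Sos1 (-0.38 on the log2 scale, limma adjusted p = 0.367). Of 22 GTPase-activating proteins and dissociation inhibitors 0 were called in limma (4 at an unadjusted p under 0.05, median 0.01), and the smallest was that of Arhgap12 (-0.63 on the log2 scale, limma adjusted p = 0.105). Of 33 effectors, Iqgap2 fell and 32 were not called (median -0.01). Abi3, a subunit of the WAVE actin complex, measured 6.15, 6.25 and 6.21 in Fog1+/+ and 7.24, 6.94 and 6.67 in Fog1ki/ki and just missed the threshold (log2 difference 0.75, limma adjusted p = 0.0556).

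**Figure D4:**
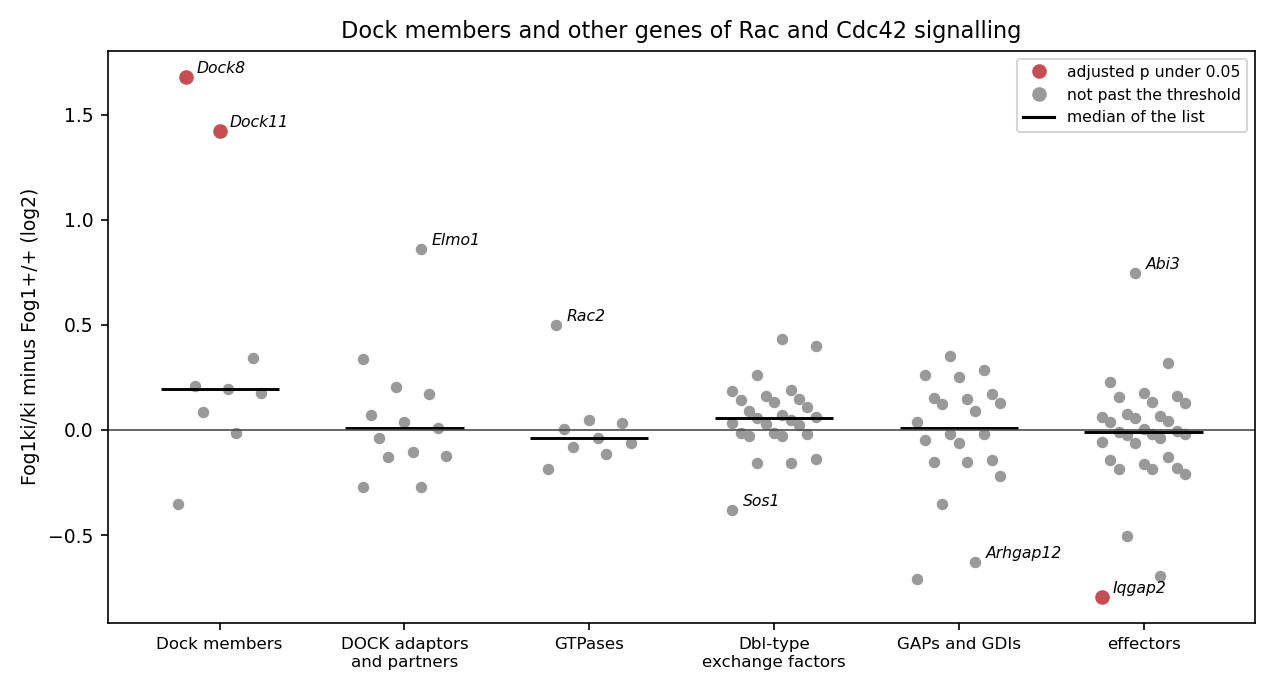
Log2 differences of Fog1ki/ki minus Fog1+/+ (vertical axis) for the 9 Dock members and the 5 lists of Rac and Cdc42 signalling genes, 1 point per gene, with genes past an adjusted p of 0.05 in red and the list medians as bars. Dock8 and Dock11 stand above all 104 other genes plotted, whose differences run from -0.79 to 0.86.

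Markers of the cells that this gate could hold were measured on the same arrays. The mean over 12 markers of megakaryocyte-erythroid progenitors ran from 8.73 to 8.78 in Fog1+/+ and from 8.80 to 8.87 in Fog1ki/ki. None lay below the lower quartile in all arrays, and 0 were called in limma (4 at an unadjusted p under 0.05, as for 9.57% of all genes). These 4 went in both directions. Pf4 (log2 difference 0.97) and Itga2b (0.31) were higher in Fog1ki/ki, and Kit (-0.38) and Gata1 (-0.29) were lower. The mean over 12 mast cell markers ran from 5.21 to 5.26 in Fog1+/+ and from 5.95 to 6.45 in Fog1ki/ki. In limma 3 were called higher (Ms4a2, Rgs13 and Gata2) and 0 lower, where 0.376% and 0.397% of all genes were. Mcpt4 lay below the lower quartile in all arrays. The median log2 difference of the 12 was 0.33, with the largest values in Ms4a2 (3.79), Rgs13 (2.82), Fcer1a (1.91) and Gata2 (1.14). The enzyme genes Hpgds, Hdc, Tpsb2 and Tpsab1 on the same list stood at 0.03, 0.06, 0.07 and 0.13. The mean of the 12 was highest in Fog1ki/ki replicate 1, the array that was also highest for Dock8 and Dock11. The same array was highest for Dock2, Dock9 and Dock10. In Fog1ki/ki replicates 2 and 3 the mean was 6.14 and 5.95. Dock11 ran in that order (8.86 and 8.44) and Dock8 did not (8.99 and 9.15). The 7 basophil and eosinophil markers ran from 4.84 to 4.93 and from 5.12 to 5.30, with Cd200r3, Epx, Ccr3 and Il5ra below the lower quartile in all arrays and 0 called in limma (3 at an unadjusted p under 0.05). The part of these cells in the differences of Dock8 and Dock11 was not tested, and in bulk RNA a larger number of cells of a type and more RNA per cell cannot be told apart.

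The mean over 13 lymphoid markers overlapped between the genotypes, at 5.10 to 5.19 and 5.11 to 5.19, with 5 of the markers below the lower quartile in all arrays, among them the B cell genes Ms4a1 and Ebf1. The mean over 13 neutrophil and monocyte markers also overlapped, at 5.80 to 6.01 and 5.69 to 5.98, with Ly86 below the lower quartile in all arrays. The mean over 8 markers of cells outside the blood lineages did not overlap and was higher in Fog1ki/ki, at 5.60 to 5.61 and 5.71 to 5.79. Alb lay below the lower quartile in all arrays. Of the 8, 6 had a difference above 0, as did 56.3% of all genes. Krt8 had the largest (log2 difference 0.41, limma adjusted p = 0.356). In these 3 lists 0 genes were called in limma, and 0, 1 and 1 of the neutrophil and monocyte, lymphoid and other markers had an unadjusted p under 0.05.

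**Figure D5:**
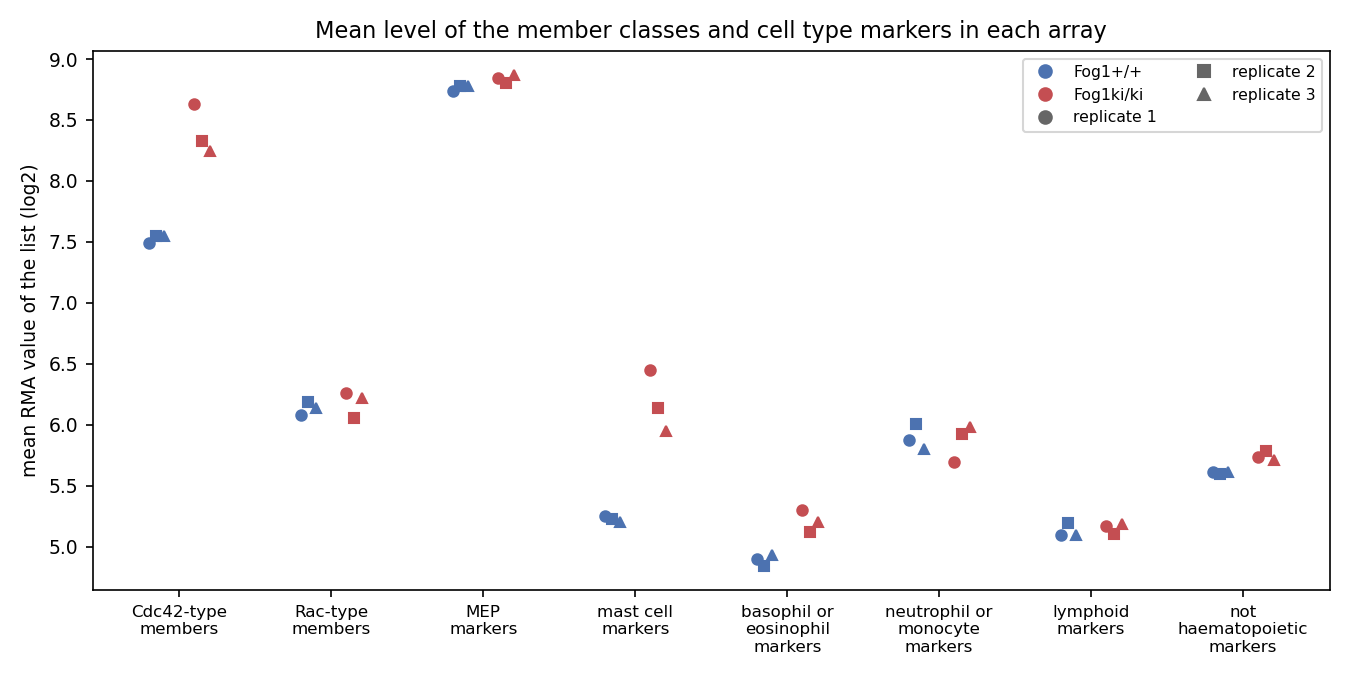
Mean RMA value (log2, vertical axis) of the Cdc42-type and Rac-type members and of 6 marker lists in each array, with Fog1+/+ in blue, Fog1ki/ki in red and the replicate number as the symbol. The Cdc42-type members (7.49 to 7.55 against 8.25 to 8.63) and the mast cell markers (5.21 to 5.26 against 5.95 to 6.45) show the widest gaps between genotypes. The first gap rests on Dock8, by which the family was chosen, and Dock11. With Dock8 left out, a mean not plotted here, the Cdc42-type members ran from 7.42 to 7.59 against 7.94 to 8.28.

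The genes whose values were most like those of Dock8 over the 6 arrays were Olfr1378, Anxa4, Lat, Vmn1r86 and Lrrc29, with Pearson correlations from 0.993 to 0.998. The arrays fall into a low and a high genotype for each of them, so the measure mostly describes that step. Anxa4, a phospholipid-binding protein, and Lat, a signalling adaptor of T cells and mast cells, had log2 differences of 0.64 and 0.57. Those of Lrrc29, Vmn1r86 and Olfr1378 were smaller, at 0.33, 0.31 and 0.21. Olfr1378, the most alike, lay below the lower quartile in 5 of the 6 arrays. All 5 genes are given with no test because likeness to Dock8 selects for such a step. Among the members, Dock11 was the most like Dock8, at 0.944, and Dock5 the least, at -0.583.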

How the data were processed

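Total RNA from sorted cells was amplified, converted to sense-strand cDNA, labelled with biotin and hybridised to 1-colour arrays, 1 sample per array, per the labels' protocols. The authors deposited log2 values made with RMA, per the submitters' processing notes, with settings not given in the sources used here. That the scale is log2 follows from the range of the values. No detection calls were used, and the number of arrays limits the precision.

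Of 25668 probe sets, 20777 had 1 gene symbol in the platform annotation, which can be old, 232 had several and 4659 had none. The probe set with the highest mean stood for each gene, which gave 19661 genes, without a filter on dim genes. The genotypes entered one linear model, fitted in R 4.3.3 by limma 3.58.1 with moderated variances (two-sided, Benjamini-Hochberg adjustment over all genes, threshold 0.05). Where nothing says that replicates came from separate animals, p-values measure only the spread between these samples. With 3 arrays against 3 an exact permutation test of a single gene was not used. The fit was tested on simulated data.

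The members, the gene lists and the tests were chosen with earlier results of these data known. Named genes were the members, Dock3, called genes of each list or else that with the smallest p, called neighbours, and the 5 genes most like Dock8. Cdc42, Rac1, Elmo2, Elmo3, Wipf1, Abi3, Scin, Kcnmb1, the genes beside Dock8 and the markers were named in addition, after their values were seen. A RefSeq table on GRCm38.p6 gave gene order and promoters. Python 3.11.15, pandas 2.3.3 and matplotlib 3.10.9 were used for tables and figures.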

Additional observations from a re-analysis of the deposited data

How the results depend on the processing

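Over 16 alternatives to the processing, run on every member (15 for Dock1 and Dock4, which a filter on dim genes removed), no member other than Dock8 gained or lost its call, and the differences of all kept their sign except that of Dock4, which ran from -0.0367 to 0.0033 with each array left out and was above 0 without Fog1ki/ki replicate 1. The median of the Cdc42-type members stayed between 0.72 and 0.94, and that of the Rac-type members between -0.01 and 0.11. Counts moved more. The 152 genes called became 60 to 134 with each array left out in turn, 24 without both arrays with low Y-linked values and 55 at an adjusted p under 0.01. Their split of 74 higher and 78 lower became 43 and 73 with each array centred on its median. At an unadjusted p under 0.05, 2 members other than Dock8 passed. The 1 pathway gene called became 2 without the dimmest 25% of genes and with array weights (Iqgap2 and Abi3), and 0 in limma with centring, with all probe sets tested and without both arrays with low Y-linked values (11, 15 and 12 at an unadjusted p under 0.05). It ranged from 0 to 1 with each array left out. The 3 called neighbours became 0 in limma with centring and without both arrays with low Y-linked values (11 and 10 at an unadjusted p under 0.05), and 0 to 2 with each array left out.

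Arrays of both genotypes share the replicate numbers 1 to 3. The deviations of equally numbered arrays correlated at 0.092, 0.008 and 0.128. For numbers 1 and 3 each array correlated best with its own number in the other genotype. The arrays numbered 3 were also the 2 with low Y-linked values, and this shared trait cannot be told apart from a pairing here. A pairing was thus not settled, and the main fit did not take the numbers as pairs. With the replicate block 133 genes were called, Dock11 remained called (limma adjusted p = 0.0127), and 2 pathway genes were called, Iqgap2 and Elmo1. Dim probe sets limit Dock1 and Dock4, whose values lie near the lower end of the array's range.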
